A study of Danio rerio with 9 samples.

Results

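The retinoic acid receptor and binding protein genes described here are 10 zebrafish genes out of the 32520 in the count table. These were taken by their Ensembl identifiers, with earlier results of these data known. They are the retinoic acid receptors raraa (ENSDARG00000056783), rarab (ENSDARG00000034893) and rarg (ENSDARG00000054003), the retinoid X receptors rxra (ENSDARG00000035127), rxrbb (ENSDARG00000002006), rxrga (ENSDARG00000005593) and rxrgb (ENSDARG00000004697), the cellular retinoic acid binding proteins crabp1 (ENSDARG00000035904) and crabp2 (ENSDARG00000030449), and the receptor corepressor nrip1b (ENSDARG00000068894). Messenger RNA was sequenced from 9 samples of embryos of Danio rerio, of which 3 carried a kdm4aa knockout, 3 carried a kdm4ab knockout and 3 were wild type. No other allele, agent or treatment was named for these groups, and the sources used here did not give the stage, the strain, the kind of mutation or whether embryos were pooled. The study used the RNA-seq to look for genes downstream of kdm4aa, and it selected cyp26a1, whose product degrades retinoic acid.

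Retinoic acid is a small lipid made from vitamin A that reaches the nucleus and binds the retinoic acid receptors (RARs). A RAR works as a heterodimer with a retinoid X receptor (RXR) on response elements in DNA, where it holds corepressors in the absence of the ligand and coactivators in its presence. RXRs also pair with other nuclear receptors, so their supply touches more than the retinoic acid response. In the cytosol the cellular retinoic acid binding proteins (CRABPs) carry the ligand: in mammalian cells CRABP2 delivers it to RAR, and CRABP1 has been tied to its breakdown. In vertebrate embryos retinoic acid patterns the hindbrain, the trunk and the limb or fin buds. The proteins encoded by kdm4aa and kdm4ab belong to a family of demethylases that remove methyl groups from lysines of histone H3.

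The libraries held 27894551 to 46156237 counts assigned to genes, and 1 count stood for 0.0202 to 0.0336 CPM, the count scaled to the size of its library by the trimmed mean of M values (TMM). All levels below are such TMM-scaled CPM. They are not corrected for gene length, so they are compared between libraries and never between genes. One library stood apart: in kdm4ab knockout replicate 2 reads fell on 14247 genes, where the other 8 libraries covered 22025 to 23019. Of genes averaging 1 to 5 CPM over kdm4ab knockout replicates 1 and 3, 38.8% were at 0 in that library. Tests of the members in the kdm4ab knockout are therefore given with and without that library. The kdm4ab transcript was at 2.38, 0 and 2.21 CPM in the kdm4ab knockout and at 127, 168 and 121 CPM in wild type (log2 fold change -6.47, adjusted p = 0.0432, and -5.91, adjusted p = 3.31e-10, without replicate 2; edgeR), and the 6-library call was lost when any other library was left out, with adjusted p between 0.122 and 0.1996. The kdm4aa transcript was at 17.9, 14.7 and 17.2 CPM in the kdm4aa knockout and at 18.0, 20.6 and 18.5 CPM in wild type, a log2 fold change of -0.20 (adjusted p = 0.166, edgeR quasi-likelihood test), so its level does not check the label of the kdm4aa knockout. Markers of embryonic tissues (16 names, 17 gene IDs), such as the mesoderm factor tbx16 and the surface layer keratin krt4, summed to 625 to 707 CPM in the kdm4aa knockout, 157 to 204 CPM in the kdm4ab knockout and 745 to 997 CPM in wild type. Muscle, blood and hatching gland genes of that list (MYOD1, gata1a, ctslb and he1.1) were at or near 0 in every library. Markers of maternal or ovarian RNA (10 of 10 matched) summed to 1867 to 2265 CPM in the kdm4aa knockout, 1571 to 4832 CPM in the kdm4ab knockout and 1264 to 1464 CPM in wild type, the 4832 CPM being kdm4ab knockout replicate 2. Markers of differentiated later tissue, such as those of muscle, eye and pancreas (6 of 8 names, 9 gene IDs), summed to at most 4.20 CPM in any library. Because these were whole embryos, fewer cells of a type and less RNA per cell cannot be told apart in any result below. Whether the 3 samples of a group were separate clutches is not stated, and the p-values reflect their spread alone, which may be technical.

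The receptor and binding protein genes differed between the genotypes in a gene-specific way. In the libraries labelled kdm4aa knockout, raraa was higher than in wild type, while rarab, rxra, rxrbb, crabp2 and nrip1b were lower. The calls of rarab and crabp2 were lost in some of the fits that left out 1 library, and that of rxra was lost in all of them. The rxra gene was tested mainly through its counts in wild type, where it is higher, so its call is a description. With all 9 libraries in 1 fit, 0 of 9 tested members were called in this comparison. Few genes were called in that fit, 4.33% of all genes tested higher and 4.55% lower. The kdm4ab knockout libraries also had more raraa than wild type, and crabp1, which was at or near 0 in the other genotypes, reached 1.81 to 7.96 CPM. With kdm4ab knockout replicate 2 left out, crabp2, rarab and nrip1b were also lower in the kdm4ab knockout than in wild type. A gene was called changed where its adjusted p was under 0.05 in the edgeR quasi-likelihood test, with Benjamini-Hochberg adjustment over all genes tested.

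**Figure D1:**
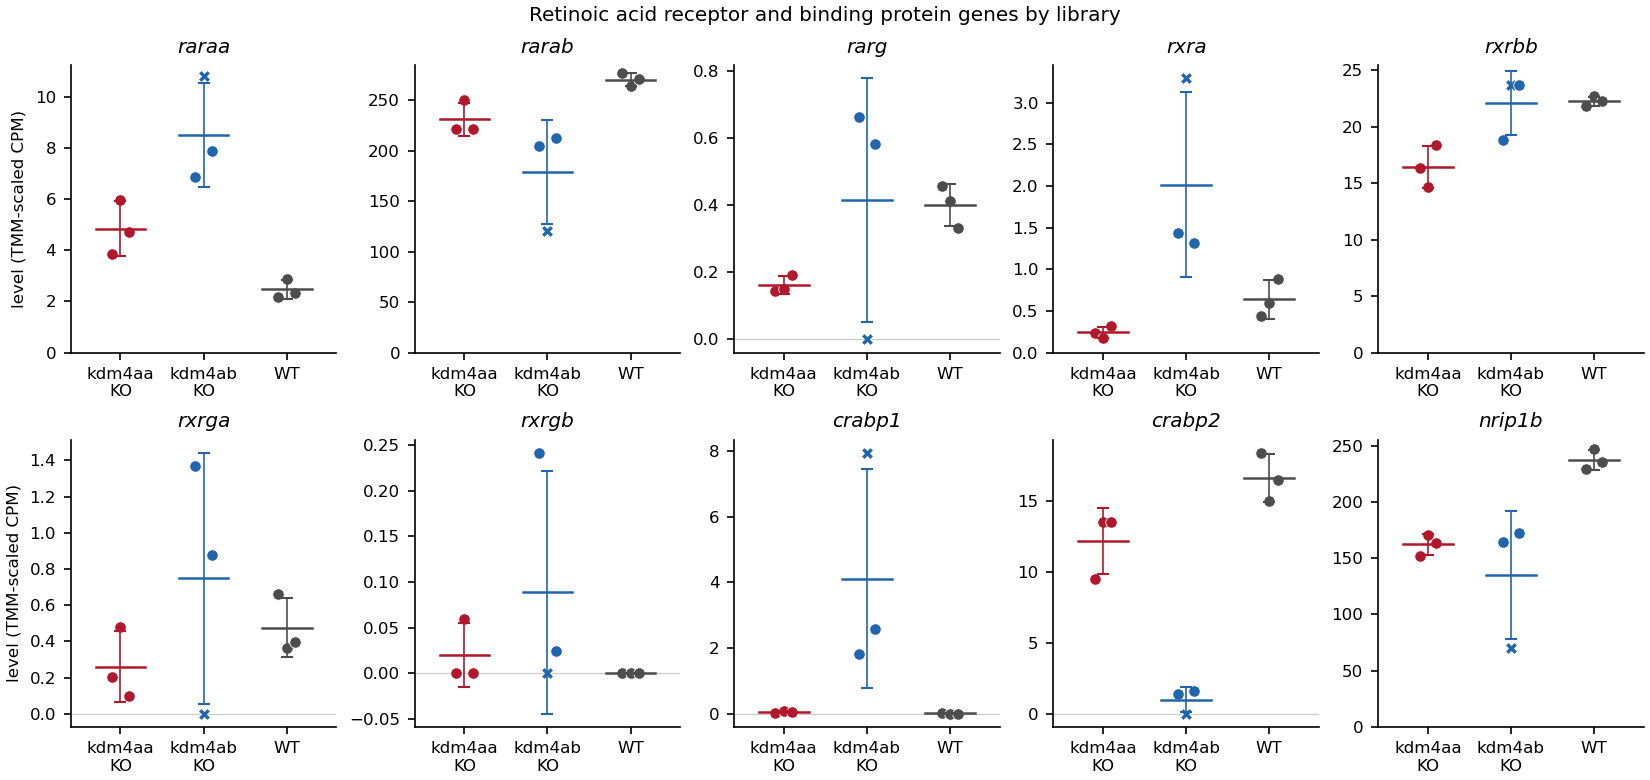
Level of each of the 10 genes (y axis, TMM-scaled CPM, a separate scale for each gene) in the kdm4aa knockout (KO), the kdm4ab knockout and wild type (WT). Points are the 3 libraries of a group, crosses mark kdm4ab knockout replicate 2, lines are means and bars 1 SD over 3 libraries. The crabp1 points of the kdm4ab knockout sit between 1.81 and 7.96 CPM above values near 0 in the other groups, and the crabp2 points of the kdm4ab knockout sit at 0 to 1.61 CPM.

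The kdm4aa knockout was compared with wild type over 6 libraries. Of the 8 members that passed the filter on low counts, 6 were called, 1 higher and 5 lower. Calls were common in this comparison: 51.1% of all 18196 genes tested were called (25.2% higher and 25.8% lower), so the share of members called was not far above that of genes in general. The median log2 fold change of the 8 tested members was -0.50, against -0.00 for all genes tested. The groups did not overlap for 7 of the 8 tested members, against 58.8% of all genes. Neither crabp1 nor rxrgb passed the filter. The genes rxra, rarg and rxrga passed it mainly through wild type, where they are higher. Their place in these counts, and the rxra call, are therefore a description.

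Of the receptors, raraa encodes a copy of RAR alpha, a duplicate pair in zebrafish with rarab. Its level was 3.88, 5.99 and 4.71 CPM in kdm4aa knockout libraries, 6.87, 10.8 and 7.91 CPM in kdm4ab knockout libraries and 2.16, 2.90 and 2.35 CPM in wild type. No knockout library of either kind was as low as any wild-type library, and every kdm4ab knockout library was above every kdm4aa knockout library. In means, raraa stood at 4.86 ± 1.06 CPM in the kdm4aa knockout, 8.53 ± 2.05 CPM in the kdm4ab knockout and 2.47 ± 0.381 CPM in wild type (SD, n = 3 each). The log2 fold change of the kdm4aa knockout over wild type was 0.97 (SE 0.225, adjusted p = 0.00201, edgeR), and the call held when any 1 library was left out, with adjusted p between 0.00169 and 0.0137. For the kdm4ab knockout over wild type it was 1.79 (SE 0.338, adjusted p = 0.038) with all 6 libraries and 1.58 (SE 0.212, adjusted p = 5.66e-05) without kdm4ab knockout replicate 2. That 6-library call did not hold when another library was left out: adjusted p was 0.109 without kdm4ab knockout replicate 1, 0.109 without replicate 3, and 0.238, 0.175 and 0.244 without wild type replicate 1, 2 and 3.

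The second copy, rarab, moved the other way. It was measured at 221, 250.0 and 222 CPM in the kdm4aa knockout, at 204, 119.9 and 213 CPM in the kdm4ab knockout and at 277, 264 and 271 CPM in wild type. Every knockout library lay below every wild-type library, and the value of 119.9 CPM belonged to kdm4ab knockout replicate 2. The kdm4aa knockout differed from wild type by -0.23 on the log2 scale (SE 0.0743, adjusted p = 0.0174, edgeR), a small decrease whose call was lost without kdm4aa knockout replicate 1 (adjusted p = 0.0718), without kdm4aa knockout replicate 3 (0.0651) and without wild type replicate 3 (0.0691). Against wild type the kdm4ab knockout gave -0.59 (SE 0.244, adjusted p = 0.209) with all 6 libraries and -0.37 (SE 0.0762, adjusted p = 0.0014) without its replicate 2.

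Within a library, the ratio of the counts of 2 genes does not depend on the scaling between libraries, and it was compared between genotypes with exact permutation tests, 9 in all. For every 100 counts of rarab there were 1.75, 2.40 and 2.12 counts of raraa in the kdm4aa knockout, 3.36, 9.02 and 3.72 in the kdm4ab knockout and 0.782, 1.098 and 0.868 in wild type. The 3 genotypes did not overlap in this ratio, and the value of 9.02 was that of kdm4ab knockout replicate 2. Each pair of genotypes gave a 2-sided exact permutation p of 0.1, the smallest that 3 libraries against 3 allow. After Benjamini-Hochberg adjustment over the 9 tests it was 0.129. In each pair raraa and rarab already stood apart in opposite directions without overlap. Their ratio could therefore not overlap, so this p was fixed in advance and is no further support. These counts carry no length correction, so the ratio compares genotypes and not the abundance of the copies.

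The third RAR gene, rarg, was scarce. It was read at 0.145, 0.150 and 0.193 CPM in kdm4aa knockout libraries, 0.665, 0 and 0.584 CPM in kdm4ab knockout libraries and 0.458, 0.414 and 0.332 CPM in wild type. The kdm4aa knockout libraries were all below wild type, and the 0 belonged to kdm4ab knockout replicate 2, where 3 counts would have been 0.101 CPM. The log2 fold change of the kdm4aa knockout over wild type was -1.28 (SE 0.605, adjusted p = 0.0903, edgeR) and did not pass the threshold. In the kdm4ab knockout it was 0.07 (SE 1.31, adjusted p = 0.979) with all libraries and 0.64 (SE 0.586, adjusted p = 0.385) without replicate 2. The symbol RARG is carried by a second gene ID, ENSDARG00000034117, which is no member and was looked at after its values were seen: it averaged 12.1 ± 1.35 CPM in the kdm4aa knockout, against 8.24 ± 1.30 CPM in wild type (SD, n = 3 each), a log2 fold change of 0.55 (adjusted p = 0.00659).

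Among the retinoid X receptors, rxrbb was the most evenly measured. Its libraries stood at 16.3, 14.7 and 18.4 CPM in kdm4aa knockout libraries, 18.9, 23.8 and 23.8 CPM in kdm4ab knockout libraries and 21.9, 22.7 and 22.3 CPM in wild type. The kdm4aa knockout lay below wild type without overlap, while the kdm4ab knockout overlapped it. The kdm4aa knockout differed from wild type by -0.44 on the log2 scale (SE 0.112, adjusted p = 0.00416, edgeR), and adjusted p was at most 0.0212 when any 1 library was left out. For the kdm4ab knockout over wild type the log2 fold change was -0.00 (SE 0.191, adjusted p = 0.992) with all libraries and -0.06 (SE 0.13, adjusted p = 0.709) without replicate 2, which does not show that the levels were alike. Per 100 counts of rarab there were 7.38, 5.87 and 8.28 counts of rxrbb in the kdm4aa knockout, 9.23, 19.8 and 11.2 in the kdm4ab knockout and 7.91, 8.60 and 8.23 in wild type. The kdm4aa knockout overlapped wild type in this ratio (exact permutation p = 0.3), while the kdm4ab knockout lay above wild type (exact permutation p = 0.1, the smallest possible). The value of 19.8 was that of kdm4ab knockout replicate 2, and the ratio was not tested without it. A related gene that is no member, RXRB (ENSDARG00000078954), looked at after its values were seen, averaged 132 ± 14.2 CPM in the kdm4aa knockout, against 119 ± 3.30 CPM in wild type (SD, n = 3 each), with a log2 fold change of 0.14 (adjusted p = 0.178).

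The level of rxra was 0.232, 0.180 and 0.314 CPM in kdm4aa knockout libraries, 1.43, 3.29 and 1.31 CPM in kdm4ab knockout libraries and 0.433, 0.595 and 0.886 CPM in wild type. The 3 genotypes did not overlap, with the kdm4aa knockout lowest and the kdm4ab knockout highest. These levels rest on 27 counts in the 3 kdm4aa knockout libraries together, 223 in the kdm4ab knockout and 80 in wild type. The log2 fold change of the kdm4aa knockout over wild type was -1.38 (SE 0.553, adjusted p = 0.0478, edgeR), and the call was lost whichever 1 of the 6 libraries was left out, with adjusted p between 0.0526 and 0.226. In that comparison rxra passed the filter on low counts mainly through wild type, where it is higher, so the call is a description. For the kdm4ab knockout over wild type it was 1.65 (SE 0.659, adjusted p = 0.194) with all libraries and 1.1 (SE 0.45, adjusted p = 0.0581) without replicate 2, and neither passed the threshold. A second gene ID with the symbol RXRA (ENSDARG00000057737) had 10 counts in the kdm4aa knockout, 28 in the kdm4ab knockout and 19 in wild type, each over 3 libraries.

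Both RXR gamma copies were near the limit of detection. The rxrga libraries were at 0.203, 0.479 and 0.0966 CPM in kdm4aa knockout libraries, 1.37, 0 and 0.876 CPM in kdm4ab knockout libraries and 0.662, 0.362 and 0.399 CPM in wild type. The kdm4aa knockout overlapped wild type, and so did the kdm4ab knockout until its replicate 2, the library at 0, was left out. Against wild type the log2 fold change was -0.89 (SE 0.648, adjusted p = 0.27, edgeR) in the kdm4aa knockout. In the kdm4ab knockout it was 0.67 (SE 1.4, adjusted p = 0.811) with all libraries and 1.25 (SE 0.509, adjusted p = 0.057) without replicate 2. In RefSeq's table of the GRCz12tu assembly, where 6 of the 10 members matched by symbol, rxrga was on the same chromosome as kdm4ab, and its part in these values was not tested. The other copy, rxrgb, had 0, 2 and 0 counts in the kdm4aa knockout, 12, 0 and 1 counts in the kdm4ab knockout and 0 in all 3 wild-type libraries, where a count of 0 allows up to 3 counts, or 0.0664 to 0.0776 CPM, per library. No fold is given for rxrgb, which did not pass the filter in any of the 3 comparisons.

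Among the 9 members tested there, the binding proteins showed the widest differences of the kdm4ab knockout from wild type. The crabp1 gene had 1, 3 and 2 counts in the kdm4aa knockout, 90, 237 and 106 counts in the kdm4ab knockout and 1, 0 and 0 counts in wild type. In levels this was 0.0289, 0.0898 and 0.0483 CPM in kdm4aa knockout libraries, 1.81, 7.96 and 2.58 CPM in kdm4ab knockout libraries and 0.0255, 0 and 0 CPM in wild type. Each kdm4ab knockout library was far above all 6 others, and the highest was replicate 2. The kdm4aa knockout and wild type were at or under 3 counts in every library, so no fold is given between them.

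From 433 counts against 1, the ratio of the kdm4ab knockout to wild type was 442 (95% Clopper-Pearson interval 79.0 to 17515). Without replicate 2 it was 266 (47.2 to 10558), from 196 counts against 1. Both intervals cover counting error only. In the edgeR fit crabp1 was called with all 6 libraries (adjusted p = 0.0217) and without kdm4ab knockout replicate 2 (adjusted p = 5.21e-06). It passed the filter on low counts only through the kdm4ab knockout, where it is high, so these calls are a description. The 6-library call was lost without kdm4ab knockout replicate 1 (0.0773), kdm4ab knockout replicate 3 (0.0768), and wild type replicate 1, 2 or 3 (0.153, 0.136 and 0.157).

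The other binding protein gene, crabp2, showed the opposite picture. It was at 9.49, 13.5 and 13.5 CPM in kdm4aa knockout libraries, 1.37, 0 and 1.61 CPM in kdm4ab knockout libraries and 18.4, 15.0 and 16.4 CPM in wild type. The 3 genotypes did not overlap, with wild type highest and the kdm4ab knockout lowest. Means were 12.2 ± 2.31 CPM in the kdm4aa knockout, 0.992 ± 0.867 CPM in the kdm4ab knockout and 16.6 ± 1.70 CPM in wild type (SD, n = 3 each). The kdm4aa knockout differed from wild type by -0.45 on the log2 scale (SE 0.146, adjusted p = 0.0176, edgeR), and this call was lost without kdm4aa knockout replicate 1 (adjusted p = 0.0941) or wild type replicate 1 (0.0733). The kdm4ab knockout over wild type gave -3.48 (SE 0.191, adjusted p = 2.89e-08) without replicate 2, the library at 0, and -4.04 (SE 1.25, adjusted p = 0.115) with it.

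The ratio of crabp1 to crabp2 counts within a library, which carries no length correction and compares genotypes only, was higher in the kdm4ab knockout than in the other genotypes. There were 0.305, 0.665 and 0.358 counts of crabp1 for every 100 counts of crabp2 in the kdm4aa knockout, 132 and 161 in kdm4ab knockout replicates 1 and 3, and 0.139, 0 and 0 in wild type. Kdm4ab knockout replicate 2 had no crabp2 count and gives no ratio. The symbols CRABP1 and CRABP2 each stand on a second gene ID, which had at most 1 count and 17 counts in the 3 libraries of any genotype together. The summed markers of embryonic tissues, given above, were also lowest in the kdm4ab knockout, and krt4 was at 79.9 to 94.7 CPM in the kdm4aa knockout, 5.65 to 11.3 CPM in the kdm4ab knockout and 154 to 198 CPM in wild type. Not all members of that marker list followed this order: GATA2 was at 51.3 to 60.1 CPM in the kdm4aa knockout, 0 to 30.9 CPM in the kdm4ab knockout and 34.4 to 47.2 CPM in wild type. SOX3 was at 117 to 143 CPM in the kdm4aa knockout, 69.1 to 83.3 CPM in the kdm4ab knockout and 89.1 to 123 CPM in wild type. The part of these markers in the crabp2, crabp1 and raraa results was not tested.

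The corepressor gene nrip1b encodes a copy of NRIP1 (RIP140), which binds ligand-bound nuclear receptors and dampens their activity. Its level was 152, 171 and 164 CPM in kdm4aa knockout libraries, 164, 69.7 and 172 CPM in kdm4ab knockout libraries and 229, 247 and 236 CPM in wild type. Every knockout library was below every wild-type library, and the kdm4ab knockout libraries other than replicate 2 sat within or just above the range of the kdm4aa knockout. The kdm4aa knockout differed from wild type by -0.55 on the log2 scale (SE 0.074, adjusted p = 1.79e-05, edgeR), the smallest adjusted p of the 8 tested members, and it stayed at or below 0.0003 when any 1 library was left out. For the kdm4ab knockout over wild type it was -0.49 (SE 0.08, adjusted p = 0.000254) without replicate 2 and -0.80 (SE 0.349, adjusted p = 0.228) with it.

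Relative to rarab, nrip1b was also lower in the knockouts, though only slightly in kdm4ab knockout replicates 1 and 3. For every 100 counts of rarab there were 68.9, 68.4 and 73.7 counts of nrip1b in the kdm4aa knockout, 80.4, 58.1 and 81.0 in the kdm4ab knockout and 82.9, 93.5 and 87.0 in wild type. The value of 58.1 was that of kdm4ab knockout replicate 2, while replicates 1 and 3 lay just below the lowest wild-type library. The ratio was not tested without replicate 2. Neither knockout overlapped wild type, and each comparison with wild type gave an exact permutation p of 0.1, the smallest possible with 3 libraries against 3 and 0.129 after adjustment over the 9 tests. A second NRIP1 gene that is no member (ENSDARG00000068965) moved in the other direction: it averaged 29.9 ± 1.04 CPM in the kdm4aa knockout, against 20.3 ± 2.30 CPM in wild type (SD, n = 3 each), with a change of 0.56 on the log2 scale (SE 0.108, adjusted p = 0.000513, edgeR). Reads shared by such copies could be split between them, since the sources used here do not say how multiply mapped reads were counted.

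**Figure D2:**
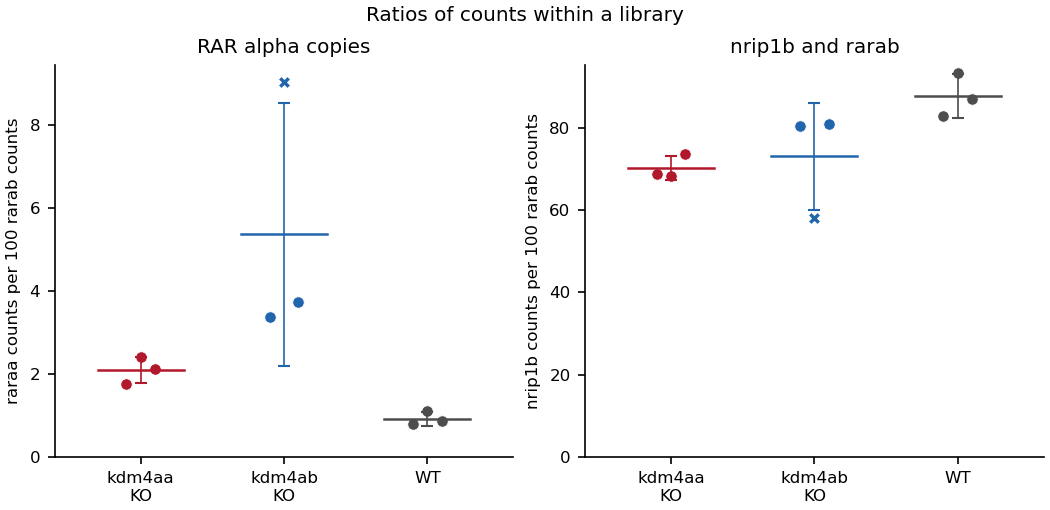
Counts of raraa (left) and of nrip1b (right) for every 100 counts of rarab in the same library (y axes, not corrected for length) in the kdm4aa knockout, the kdm4ab knockout and wild type. Points are the 3 libraries of a group, crosses mark kdm4ab knockout replicate 2, lines are means and bars 1 SD. The raraa ratio is 1.75 to 2.40 in the kdm4aa knockout, 3.36 to 9.02 in the kdm4ab knockout and 0.782 to 1.098 in wild type.

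Counted over the members, the kdm4ab knockout against wild type gave 2 calls of 9 tested, both higher (raraa and crabp1), against 6.03% of the 18097 genes tested. With 1, 0 and 0 counts in wild type, crabp1 passed the filter on low counts only through the kdm4ab knockout, where it is high, so its place in this count and in those below is a description. Without kdm4ab knockout replicate 2 there were 5 calls of 9, 2 higher (raraa and crabp1) and 3 lower (rarab, crabp2 and nrip1b), against 51.1% of 19146 genes, so the share of members called was close to that of all genes. The groups did not overlap for 6 of the 9 tested members with all libraries (44.7% of all genes) and for 8 of 9 without replicate 2 (68.9% of all genes). The common biological coefficient of variation between replicates was 57.2% with replicate 2 and 13.2% without it. The comparisons of each knockout with wild type share the wild-type libraries, so the values of the members in each are given side by side and are not independent.

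**Figure D3:**
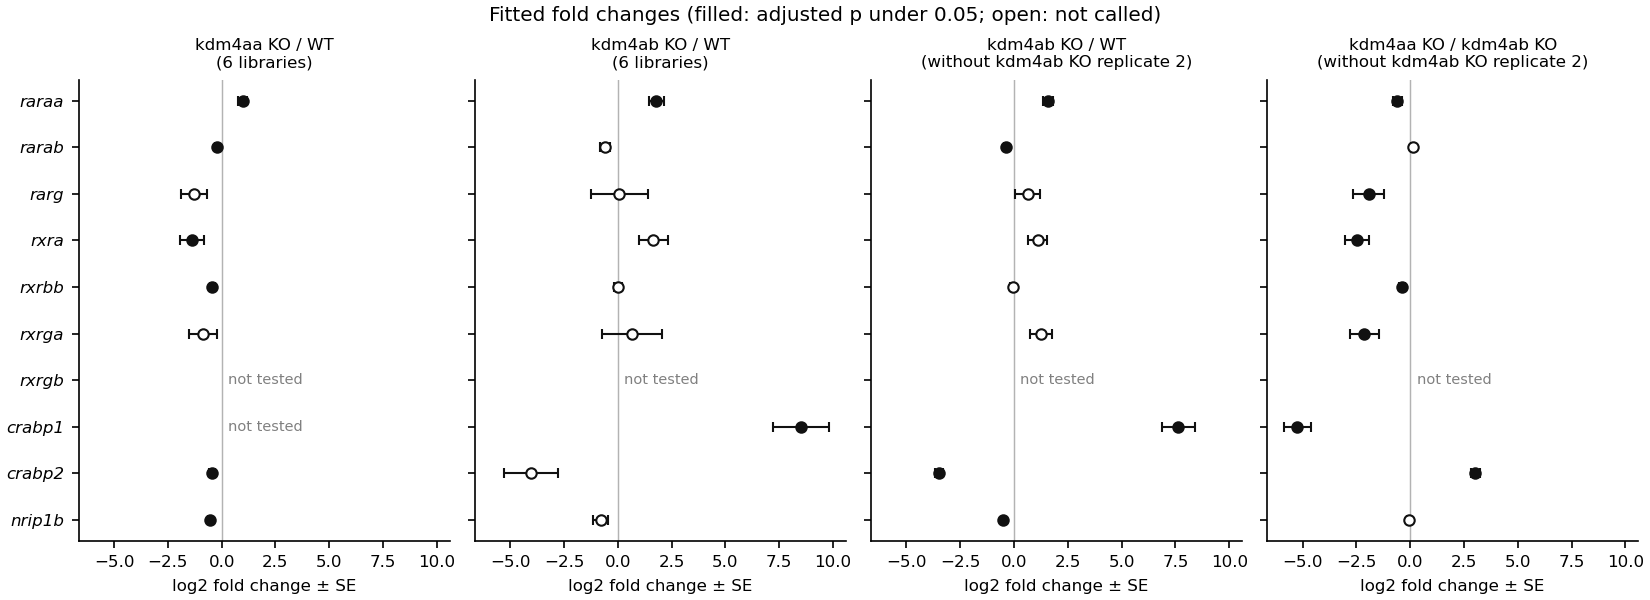
Log2 fold changes with 1 SE from edgeR (x axis) for the 10 genes (rows) in the kdm4aa knockout over wild type, the kdm4ab knockout over wild type with all 6 libraries and without kdm4ab knockout replicate 2, and the kdm4aa knockout over the kdm4ab knockout without that library. Filled points had an adjusted p under 0.05 and open points did not. The points of crabp1 lie at 8.51 and 7.64 in the kdm4ab knockout over wild type and that of crabp2 at -3.48 without replicate 2.

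The knockouts were then compared with each other. With all 6 libraries 1 of 8 tested members was called, against 7.09% of 17746 genes tested (2.95% higher and 4.14% lower). The groups did not overlap for 6 of the 8, against 41.8% of all genes. That member was crabp1, lower in the kdm4aa knockout than in the kdm4ab knockout by -6.14 on the log2 scale (SE 0.935, adjusted p = 0.0201, edgeR). The call held without kdm4ab knockout replicate 2 (-5.24, SE 0.614, adjusted p = 2.02e-06). It was lost when any other library was left out, with adjusted p of 0.141, 0.119 and 0.149 without kdm4aa knockout replicate 1, 2 and 3, and 0.0641 and 0.0659 without kdm4ab knockout replicate 1 and 3.

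Without kdm4ab knockout replicate 2 there were 7 calls of 9 tested members, 1 higher and 6 lower in the kdm4aa knockout, against 53.8% of 18905 genes (26.4% higher and 27.4% lower). The groups did not overlap for 8 of the 9, against 69.5% of all genes. The member that was higher was crabp2, by 3.04 on the log2 scale (SE 0.231, adjusted p = 1.2e-08), against 3.59 (adjusted p = 0.145) with all libraries. Among the receptors rxra was lower by -2.47 (SE 0.558, adjusted p = 0.00131), against -3.04 (adjusted p = 0.0557) with all libraries. The other receptors that were lower in the kdm4aa knockout were rxrga at -2.13 (adjusted p = 0.0131), rarg at -1.91 (0.0334), raraa at -0.60 (0.0243) and rxrbb at -0.37 (0.0456). Of these, rxrga had 7, 16 and 4 counts in the kdm4aa knockout, against 68 and 36 in kdm4ab knockout replicates 1 and 3. For rarg there were 5, 5 and 8 counts in the kdm4aa knockout, against 33 and 24 in those kdm4ab knockout replicates. The counts of rxra were 8, 6 and 13 in the kdm4aa knockout, against 71 and 54 in those replicates. All of rxra, rxrga, rarg and crabp1 were tested mainly through the counts of the kdm4ab knockout. The number of calls is therefore not read as support. With all libraries rxrga, raraa and rxrbb did not pass the threshold (adjusted p = 0.614, 0.199 and 0.275), and rarg did not pass the filter on low counts. Although raraa and crabp2 each moved in the same direction in both knockouts, their amounts differed, as given above. The genes rarab and nrip1b, lower in both knockouts without replicate 2, gave small differences between them. Without replicate 2, rarab differed by 0.15 (SE 0.0965, adjusted p = 0.196, edgeR) and nrip1b by -0.05 (SE 0.0953, adjusted p = 0.698). The nrip1b difference was 0.26 (adjusted p = 0.72) when that library was kept.

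The genes most like raraa were sought across the 8 libraries without kdm4ab knockout replicate 2. Candidates were the 10005 genes that averaged 5 CPM or more and had an informative symbol. Likeness was the root mean square difference of log2 CPM centred on each gene's mean. The most alike were ASB16 (0.139), CSPP1 (0.141), STK39 (0.151), crtc2 (0.152) and hid1a (0.160), where raraa itself varied with a root mean square of 0.657. CSPP1, for one, averaged 43.7 CPM in the kdm4aa knockout, 70.6 CPM in the kdm4ab knockout without replicate 2 and 25.1 CPM in wild type. The genes most like crabp2, which varied with a root mean square of 1.41, were asb11 (0.209), the keratins krt18a.1 (0.213) and krt97 (0.250), the BMP antagonist gene chrd (0.253) and SEMA6D (0.257). Their levels followed the same order of genotypes: chrd averaged 50.5 CPM in the kdm4aa knockout, 8.82 CPM in the kdm4ab knockout without replicate 2 and 67.6 CPM in wild type. These likenesses are a description over 8 libraries of 3 genotypes and carry no test.

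The rest of the pathway was read from 5 lists of genes, none holding a member. The list named RXR partner receptors also holds nuclear receptors such as HNF4A, NR2E3 and NR2C1, and their pairing with RXR was not checked. In the kdm4aa knockout against wild type, 25.2% of all genes tested were called higher and 25.8% lower. The RXR partner receptors had 12 of 25 tested genes lower and 0 higher, with a median log2 fold change of -0.33 against -0.00 over all genes. At an unadjusted p under 0.05 edgeR gave 1 higher and 13 lower of these, and DESeq2 called 0 higher and 12 lower of 30 tested. The oxysterol receptor gene NR1H3 was at 41.1 ± 1.40 CPM in the kdm4aa knockout, against 104 ± 3.59 CPM in wild type (SD, n = 3 each, as for the means below; log2 fold change -1.34, adjusted p = 3.23e-09). The fatty acid receptor gene PPARD (ENSDARG00000009473), which stands on this list and on the next, was at 14.9 ± 0.237 CPM in the kdm4aa knockout, against 35.8 ± 1.90 CPM in wild type (-1.26, adjusted p = 6.7e-08). Lower too were NR4A1 (-0.63, adjusted p = 0.000125), an orphan receptor gene, and NR2C1 (-0.87, adjusted p = 0.000362), which encodes a testicular receptor.

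**Figure D4:**
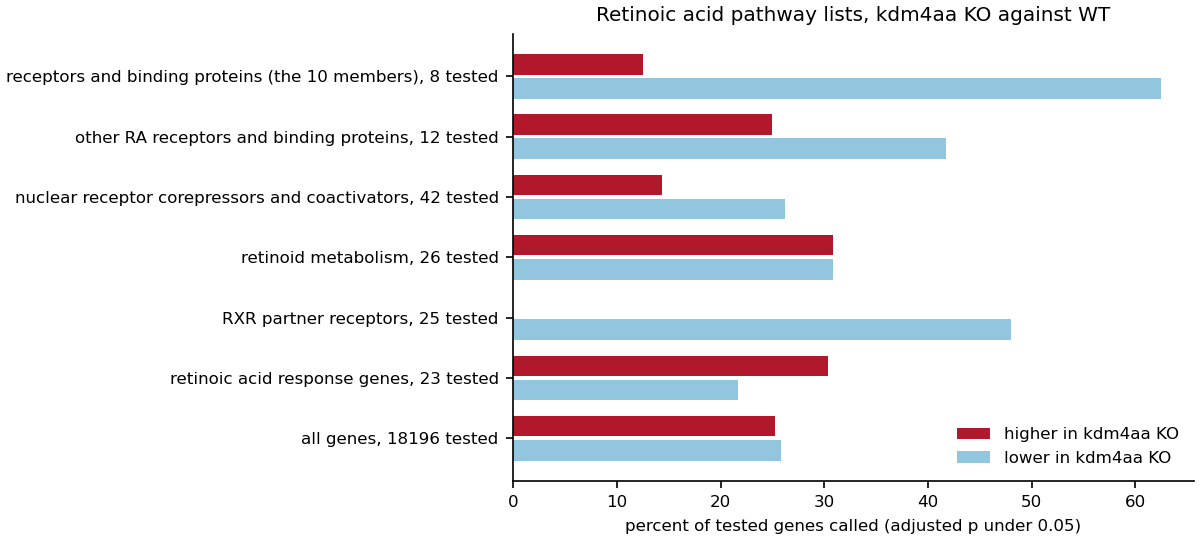
Percent of the tested genes of each list called higher (red) or lower (blue) in the kdm4aa knockout than in wild type (x axis, adjusted p under 0.05, edgeR), with the number tested beside each name. The RXR partner receptors have 0 of 25 higher and 12 of 25 lower, and all genes have 25.2% higher and 25.8% lower.

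The list of other retinoic acid receptors and binding proteins had 3 higher and 5 lower of 12 tested, with a median of 0.01. The cellular retinol binding protein gene RBP2 was higher, at 4.53 ± 0.277 CPM in the kdm4aa knockout, against 0.777 ± 0.364 CPM in wild type (log2 fold change 2.52, adjusted p = 6.21e-06). The nuclear receptor gene RORA was at 3.05 ± 0.0701 CPM in the kdm4aa knockout, against 8.06 ± 0.184 CPM in wild type (-1.41, adjusted p = 4.3e-06). The corepressors and coactivators had 6 higher and 11 lower of 42 tested, with a median of -0.08. These were 14.3% higher and 26.2% lower, and the list before had 25% higher and 41.7% lower. Over all genes tested, 25.2% were higher and 25.8% lower, so the share of corepressors and coactivators called was not above that of genes in general. MED1, a Mediator subunit that contacts nuclear receptors, rose to 35.2 ± 1.72 CPM in the kdm4aa knockout, against 11.5 ± 0.178 CPM in wild type (1.61, adjusted p = 5.76e-09). Genes of this list that fell were the coactivator NCOA3 (-0.72, adjusted p = 2.18e-06), the histone acetyltransferase KAT2B (-1.35, adjusted p = 3.85e-06) and the corepressor complex subunit GPS2 (-0.51, adjusted p = 5.85e-05).

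Retinoid metabolism genes had 8 higher and 8 lower of 26 tested, with a median of 0.04. RDH10, which oxidises retinol to retinaldehyde, was higher at 93.8 ± 3.69 CPM in the kdm4aa knockout, against 62.3 ± 4.36 CPM in wild type (log2 fold change 0.59, adjusted p = 2.83e-05). DGAT1, an acyltransferase that can esterify retinol in mammals, was at 8.63 ± 0.327 CPM in the kdm4aa knockout, against 2.84 ± 0.267 CPM in wild type (1.60, adjusted p = 1.45e-06). BCO2, a carotenoid cleaving enzyme, was lower (-1.05, adjusted p = 1.67e-05), and ALDH8A1, an aldehyde dehydrogenase gene, averaged 0.0161 CPM in the kdm4aa knockout, against 1.76 CPM in wild type (adjusted p = 6.48e-06). ALDH8A1 passed the filter on low counts through wild type, where it is high, so its call is a description. The retinoic acid hydroxylase gene CYP26A1 was picked by the study from these same samples and was at 62.5, 64.9 and 61.2 CPM in kdm4aa knockout libraries, 96.5, 137 and 116 CPM in kdm4ab knockout libraries and 99.97, 75.5 and 89.5 CPM in wild type. Its log2 fold change was -0.49 in the kdm4aa knockout over wild type (adjusted p = 0.000593), which is not independent evidence of its direction.

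The retinoic acid response genes had 7 higher and 5 lower of 23 tested, with a median of 0.19. Higher were the homeodomain gene pbx1b at 4.80 ± 0.668 CPM in the kdm4aa knockout, against 0.0937 ± 0.103 CPM in wild type (log2 fold change 5.68, adjusted p = 1.69e-07), the phosphatase gene ppm1h (1.28, adjusted p = 4.37e-07) and the transglutaminase gene TGM2 (0.76, adjusted p = 3.63e-06). Wild type was near the floor of 3 counts for pbx1b, which passed the filter on low counts through the kdm4aa knockout. Its fold ran from 5.06 to 6.93 on leaving out 1 library, and its call is a description. The transcriptional repressor gene HIC1 was lower (-0.89, adjusted p = 3.64e-07). The shares called on this list and on the metabolism list were within a few genes of those of all genes tested. The list genes named for the kdm4aa knockout against wild type each kept the call when any 1 of the 6 libraries was left out. With all 9 libraries in 1 fit, however, RBP2, the second NRIP1 gene, NR2C1, RDH10, BCO2, ALDH8A1, CYP26A1, TGM2 and HIC1 were not called. In that fit the RXR partner receptors had 4 of 27 lower and 0 higher, beside 4.55% lower and 4.33% higher over all genes. Values under RBP2 (ENSDARG00000093774), RDH10 (ENSDARG00000012369), DGAT1 (ENSDARG00000054914), BCO2 (ENSDARG00000055722), TGM2 (ENSDARG00000074094) and, below, NR2F1 (ENSDARG00000017168) are those of 1 gene ID. Each of these symbols stands on a second ID, whose values are not given here.

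For the kdm4ab knockout against wild type, calls among the lists were few with all 6 libraries, as they were among all genes (3.33% higher and 2.71% lower). The 26 RXR partner receptors tested had 1 higher and 4 lower, each of the 3 lists of other receptors, metabolism and response genes had 1 higher and 0 lower, and the corepressors and coactivators had 0 of 42 called by edgeR, with 6 lower and 0 higher at an unadjusted p under 0.05 and 3 lower by DESeq2. Without kdm4ab knockout replicate 2 the corepressors and coactivators had 9 higher and 13 lower of 42, the RXR partner receptors 7 higher and 6 lower of 26, and the other receptors and binding proteins 4 higher and 1 lower of 13. The metabolism genes then had 6 higher and 8 lower of 26 and the response genes 10 higher and 5 lower of 26, beside 26.1% higher and 25% lower over all genes. The orphan receptor gene NR2F1 was at 1.32 ± 0.489 CPM in the kdm4ab knockout and 16.5 ± 4.33 CPM in wild type (log2 fold change -3.64, adjusted p = 0.0112), and -3.99 (adjusted p = 1.19e-07) without replicate 2. DGAT1 was higher by 2.71 (adjusted p = 0.00694) with all libraries and 2.74 (adjusted p = 4.69e-08) without replicate 2. RORA was higher by 1.15 (adjusted p = 0.038) with all libraries and 1.1 (adjusted p = 5.09e-05) without replicate 2. TSHZ3, a zinc finger gene, was higher by 2.86 (adjusted p = 0.00983) with all libraries and 2.95 (adjusted p = 9.95e-08) without replicate 2. NR1H3 had a log2 fold change of -1.1 (adjusted p = 0.0184) with all libraries and -1.04 (adjusted p = 1.95e-06) without replicate 2. Apart from the fit without replicate 2, the 6-library calls of NR2F1, RORA, TSHZ3 and NR1H3 were lost whichever of the other 5 libraries was left out, with adjusted p up to 0.0953, 0.244, 0.0921 and 0.156. That of DGAT1 held without kdm4ab knockout replicate 3 and was lost without kdm4ab knockout replicate 1 (adjusted p = 0.0538) and without wild type replicate 1, 2 or 3 (0.0814, 0.0632 and 0.0883).

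Between the knockouts, RORA was lower in the kdm4aa knockout than in the kdm4ab knockout, at 3.05 ± 0.0701 CPM in the kdm4aa knockout, against 17.8 ± 1.97 CPM in the kdm4ab knockout (SD, n = 3 each; log2 fold change -2.55, adjusted p = 0.00709). NR2F1 was higher in the kdm4aa knockout by 3.38 (adjusted p = 0.0114) and ppm1h by 1.83 (adjusted p = 0.0132), while TSHZ3 (-2.18, adjusted p = 0.0149), NR2C2 (-1.27, adjusted p = 0.0207), DGAT1 (-1.11, adjusted p = 0.0323) and CYP26A1 (-0.90, adjusted p = 0.0403) were lower. Leaving out kdm4ab knockout replicate 2 kept each of these calls. Leaving out any of the other 5 lost the calls of NR2F1, ppm1h, TSHZ3, NR2C2, DGAT1 and CYP26A1, with adjusted p up to 0.0933, 0.114, 0.115, 0.163, 0.214 and 0.229. The call of RORA was lost without kdm4aa knockout replicate 1, 2 or 3 (adjusted p = 0.0815, 0.0801 and 0.0837).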

How the data were processed

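RNA was sequenced from 9 embryo samples after poly-T selection and random hexamer priming, per the labels' protocols. The authors deposited whole-number read counts per Ensembl gene, not normalized. The submitters' processing notes name the builds GRCz11 and danRer11; no aligner, counting tool or strand setting is named in the sources used here. From 32520 genes, 5076 were at 0 in all libraries. Symbols for 29201 IDs came from a name table, and 1719 symbols stand on several IDs. Each comparison used edgeR 4.0.16 in R 4.3.3 (filterByExpr, TMM, quasi-likelihood F test, Benjamini-Hochberg) on the 6 libraries of the groups compared, tested on simulated data first. SE is the log2 fold change divided by the square root of F. DESeq2 1.42.0 and other settings were alternatives. Libraries held 27894551 to 46156237 counts; intervals and floors of 3 counts cover counting error only. The chi-square per gene between replicates was 9.58 to 530, so no pair was a repeat deposit. Same-numbered samples of different groups showed little shared deviation (correlations -0.0484 to 0.0844, against -0.0776 to 0.0604 for other pairs). With 3 libraries per group this cannot exclude that the numbers pair samples.

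The members and lists were chosen with earlier results of these data known. All 10 members are named, with the study's own genes. From each list up to 4 called genes with the smallest p are named for the kdm4aa knockout against wild type and up to 2 for each other comparison, plus 5 genes most like raraa and 5 most like crabp2. List names were matched to symbols without regard to case, or to the capital symbol without the paralog letter. Levels per gene length and sequences were not used here.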

Additional observations from a re-analysis of the deposited data

Results flagged for a closer look

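The members below differed between the knockouts in their change from wild type, by the direct edgeR test of the kdm4aa knockout against the kdm4ab knockout. With all 6 libraries this held for crabp1 (log2 fold change -6.14, adjusted p = 0.0201). Without kdm4ab knockout replicate 2, the library that stood apart, it held for crabp1 (-5.24), crabp2 (3.04), rxra (-2.47), rxrga (-2.13), rarg (-1.91), raraa (-0.60) and rxrbb (-0.37), beside 53.8% of all genes tested. Of these, crabp1, rxra, rxrga and rarg were tested mainly through the counts of the kdm4ab knockout, where they are high. Their calls in both fits are therefore a description. In both knockouts raraa was above wild type and crabp2 below it, by different amounts, whereas rxrbb was called lower in the kdm4aa knockout and was not called in the kdm4ab knockout.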

How the results depend on the processing

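For the kdm4aa knockout against wild type, fitting all 9 libraries together gave 0 members called by edgeR (3 at an unadjusted p under 0.05). It called 1687 of all genes (8.88% of those tested), against 6 members and 9290 genes (51.1%). The common variation was 47.5% against 12.3%. DESeq2 on 6 libraries called 5 members, beside 41.1% of all genes. Leaving out 1 library gave 3 to 5 members, the 3 without kdm4aa knockout replicate 1, beside 42.4% to 46.9% of all genes. No member changed direction there.

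For the kdm4ab knockout against wild type (2 members and 1092 genes), members called were 1 without the filter on low counts, 5 in 1 fit of 8 libraries, and, without kdm4ab knockout replicate 2 (chosen after seeing the data), 5 by DESeq2 and 7 without the filter; leaving out 1 library gave 0 to 5. Of all genes tested, 6.03% were called with 6 libraries, 2.85% without the filter and 15.9% (3472) by DESeq2. The shared fits called 17% (3232) with 9 libraries and 49.5% (9848) with 8. With 5 libraries, 42.9% (9633) were called by DESeq2 and 38.8% (10282) without the filter. Leaving out 1 library gave 0.0106% to 51.1% (2 to 9777). For the kdm4aa knockout against the kdm4ab knockout (1 member and 1259 genes), members called were 3 by DESeq2, 3 with 9 libraries, 7 with 8, and, with 5 libraries, 5 by DESeq2 and 6 without the filter; leaving out 1 library gave 0 to 7. Of all genes tested here, 7.09% were called with 6 libraries, 3.15% (828) without the filter and 16.5% (3479) by DESeq2. The shared fits called 18.2% (3457) with 9 libraries and 52.8% (10499) with 8. With 5 libraries, 44.3% (9854) were called by DESeq2 and 39.5% (10383) without the filter. Leaving out 1 library gave 0.00533% to 53.8% (1 to 10169). The counts of members in both comparisons are read only beside these shares.

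The replicate number was also fitted as a block, though pairing by number was not established. With it, 5 members and 8879 genes (48.8% of those tested) were called for the kdm4aa knockout against wild type. For the kdm4ab knockout against wild type, 0 members (3 at an unadjusted p under 0.05) and 0 genes (2791 unadjusted) were called. Between the knockouts, 0 members (2 unadjusted) and 2 genes were called.

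Directions turned for 4 members, none of which was called there with 6 libraries. In the kdm4ab knockout against wild type, rarg turned to -0.00 by DESeq2 (-0.000219), -0.62 with the block, and ran from -0.44 to 0.64 on leaving out 1 library; rxrga to -0.22 with the block and ran from -0.10 to 1.25 on leaving out 1 library; rxrbb ran from -0.064 to 0.077 on leaving out 1 library. Between the knockouts nrip1b ran from -0.0476 (without kdm4ab knockout replicate 2) to 0.46 on leaving out 1 library, and was -0.0524 with 8 libraries, -0.0395 by DESeq2 on 5 libraries and -0.0514 with no filter on 5 libraries. The cause was not tested. DESeq2 moved the median of all genes to -0.19 in the kdm4ab knockout against wild type, against -0.02. CPM from raw totals moved all 30 member means by less than 1 SD. Depth limits rarg, rxra, rxrga, rxrgb and crabp1, where a library held few counts.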
